A study of Manis javanica with 3 samples.

Results

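The genes described here are 40 genes of the cell cycle and of DNA replication in the Malayan pangolin (Manis javanica), a scaled and toothless mammal that eats ants and termites. The list comprised 15 genes of S phase, 16 of mitosis, 6 cyclins and kinases of G1 and 3 inhibitors of cyclin-dependent kinases, and it was drawn up by symbol, not by expression. All 40 were found in the deposited annotation by the product name of the best protein match, and 37 of them had expression values among the 24220 genes measured. CCNA2, BUB1B and CCND3 were annotated but not analysed here. The animal was a wild adult female that died during rescue and was dissected at once, with no treatment named. Its small intestine, salivary glands and liver gave 1 library each, made from RNA selected on its poly-A tail. No value below therefore has a replicate check, no p-value is given, and every interval covers counting error only.

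Cells enter division from G1, when D-type cyclins with CDK4 or CDK6, and then cyclin E with CDK2, release E2F factors from the retinoblastoma protein. E2F targets include the MCM helicase, the loading factors of replication origins and the enzymes that make deoxynucleotides, all of which work in S phase. Genes of mitosis are switched on later, in G2, and fall silent in cells that have left the cycle, whereas p21, p27 and p57, the products of CDKN1A, CDKN1B and CDKN1C, hold kinases of the cycle in check. In the digestive tract, division is concentrated in the crypts of the intestine and the neck region of gastric glands, while most hepatocytes and secretory gland cells of an adult rest.

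Throughout, values given 3 at a time follow the order small intestine, salivary glands, liver. The libraries held 10158924, 8318686 and 14568778 fragments counted on genes, so that a count of 0 leaves room for 0.295, 0.361 and 0.206 CPM (counts scaled to a common library size), which are 3 counts in each. A single gene took 23.0%, 7.94% and 3.68% of the counts. Ratios between libraries were therefore computed from counts scaled by TMM, a method that sets most genes level, and levels of different genes were compared as FPKM, the fragments scaled for transcript length and library size. The library labelled small intestine carried gastric markers, with an FPKM of 1073 for the proton pump gene ATP4A and 7 of 9 gastric markers above an FPKM of 10. Most enterocyte markers were near 0 there, with FABP2 and LCT at a count of 0 and SI at an FPKM of 0.0421. VIL1 alone of the 7 with values was above an FPKM of 10. MUC2 was at an FPKM of 1.17 there, with counts of 177, 1 and 1 in the 3 libraries. All 8 hepatocyte markers were above an FPKM of 1 in the liver library. Of 8 salivary gland markers 3 had values, and only AQP5 was above an FPKM of 1 in the salivary gland library, at 94.3. In the liver library AQP5 was at 24.7. In such bulk tissue, fewer cells of a type cannot be told apart from less RNA per cell.

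Of the 37 members with values, 29, 26 and 23 had an FPKM above 1, that is 78.4%, 70.3% and 62.2% of them. Among all genes the shares were 59.4%, 56.3% and 57.0%. The shares differed by role. Of the 15 S phase members, 15, 14 and 13 were above an FPKM of 1 in the 3 libraries, and 13 were so in every library. Of the 14 mitosis members with values, 6, 4 and 3 were above it, 2 (PLK1 and BIRC5) were so in every library and 7 in none. All 5 G1 members and all 3 inhibitors were above it in every library, except CDK6 in the liver library with an FPKM of 0.682. The median FPKM of the S phase members was 5.89, 5.02 and 4.38, against 0.450, 0.223 and 0.173 for the mitosis members.

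**Figure D1:**
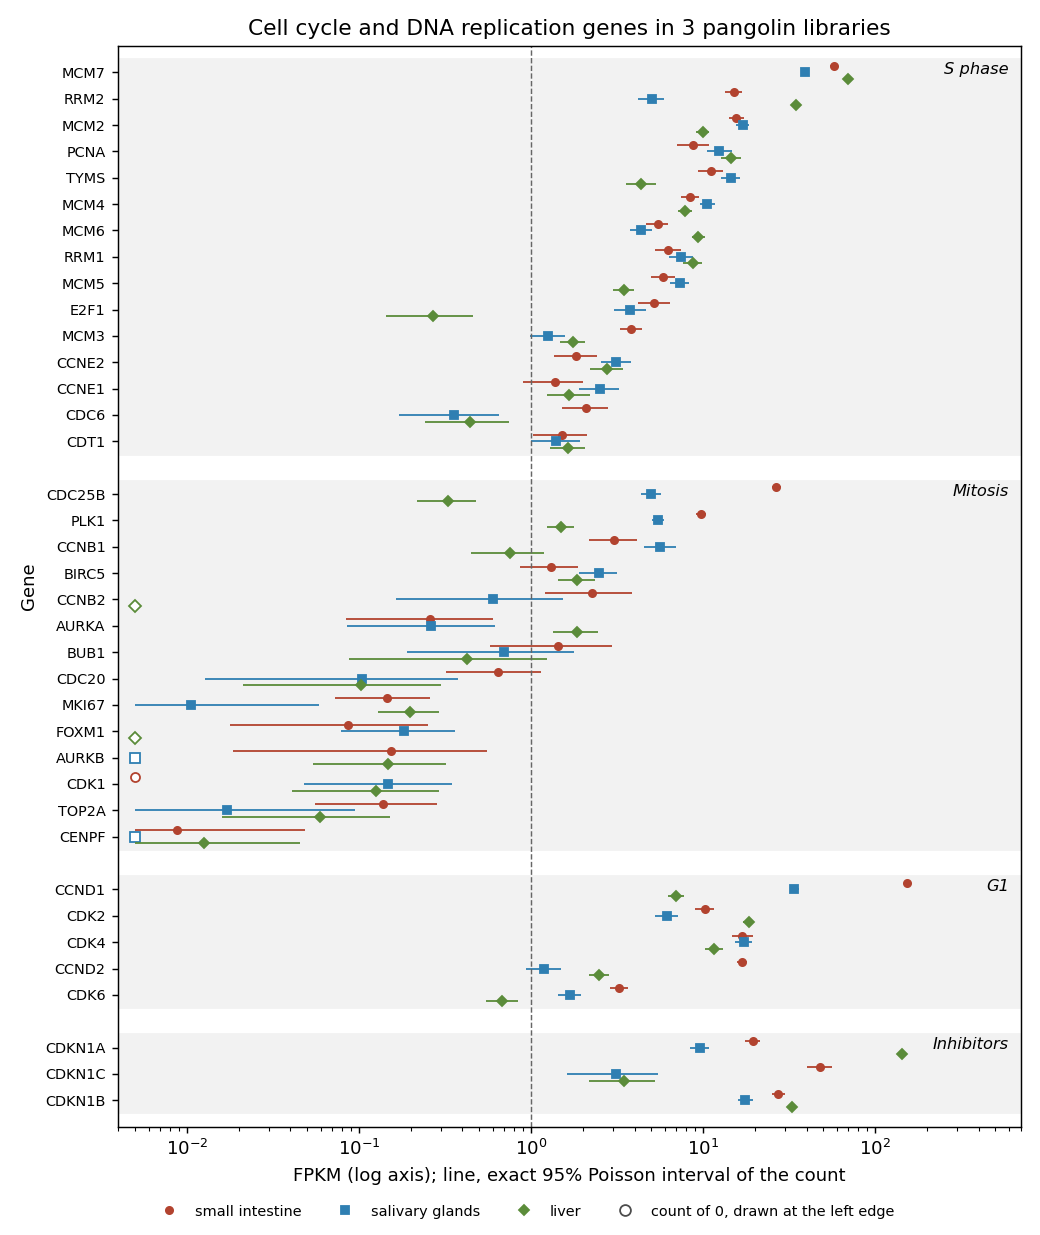
FPKM (log axis) of the 37 members with values in the small intestine (circles), salivary gland (squares) and liver (diamonds) libraries, in 4 role groups; lines are exact 95% Poisson intervals of the count, open symbols are counts of 0, and the dashed line marks an FPKM of 1. S phase members lie mostly to the right of that line in all 3 libraries, while 7 of the 14 mitosis members lie to its left in all 3.

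In comparisons between libraries, a gene was called higher or lower at 2-fold or more in TMM-scaled counts, if at least 10 counts were present in 1 of the 2 libraries. Between the small intestine and the liver libraries 31 members could be compared, of which 13 were higher and 2 lower in the small intestine, where 24.2% and 24% of all genes were called. Between the salivary gland and the liver libraries 7 of 29 members were higher and 6 lower in the salivary glands, against 22.9% and 24.9% of all genes. Between the small intestine and the salivary gland libraries 10 of 30 members were higher and 1 lower in the small intestine, against 20.6% and 16.9% of all genes. As shares of the members compared these were 41.9% and 6.45%, then 24.1% and 20.7%, then 33.3% and 3.33%. The shares between salivary glands and liver were near those of all genes. Of the 39 calls, all but 4 (MCM3, CCND2, RRM2 and BIRC5, each in 1 comparison) remained past 2-fold under each of 5 other scalings of the counts. With factors from all counts except those of genes holding over 1% of a library, members within 2-fold also crossed it, and 12 members were higher and 5 lower in the salivary glands than in the liver.

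**Figure D2:**
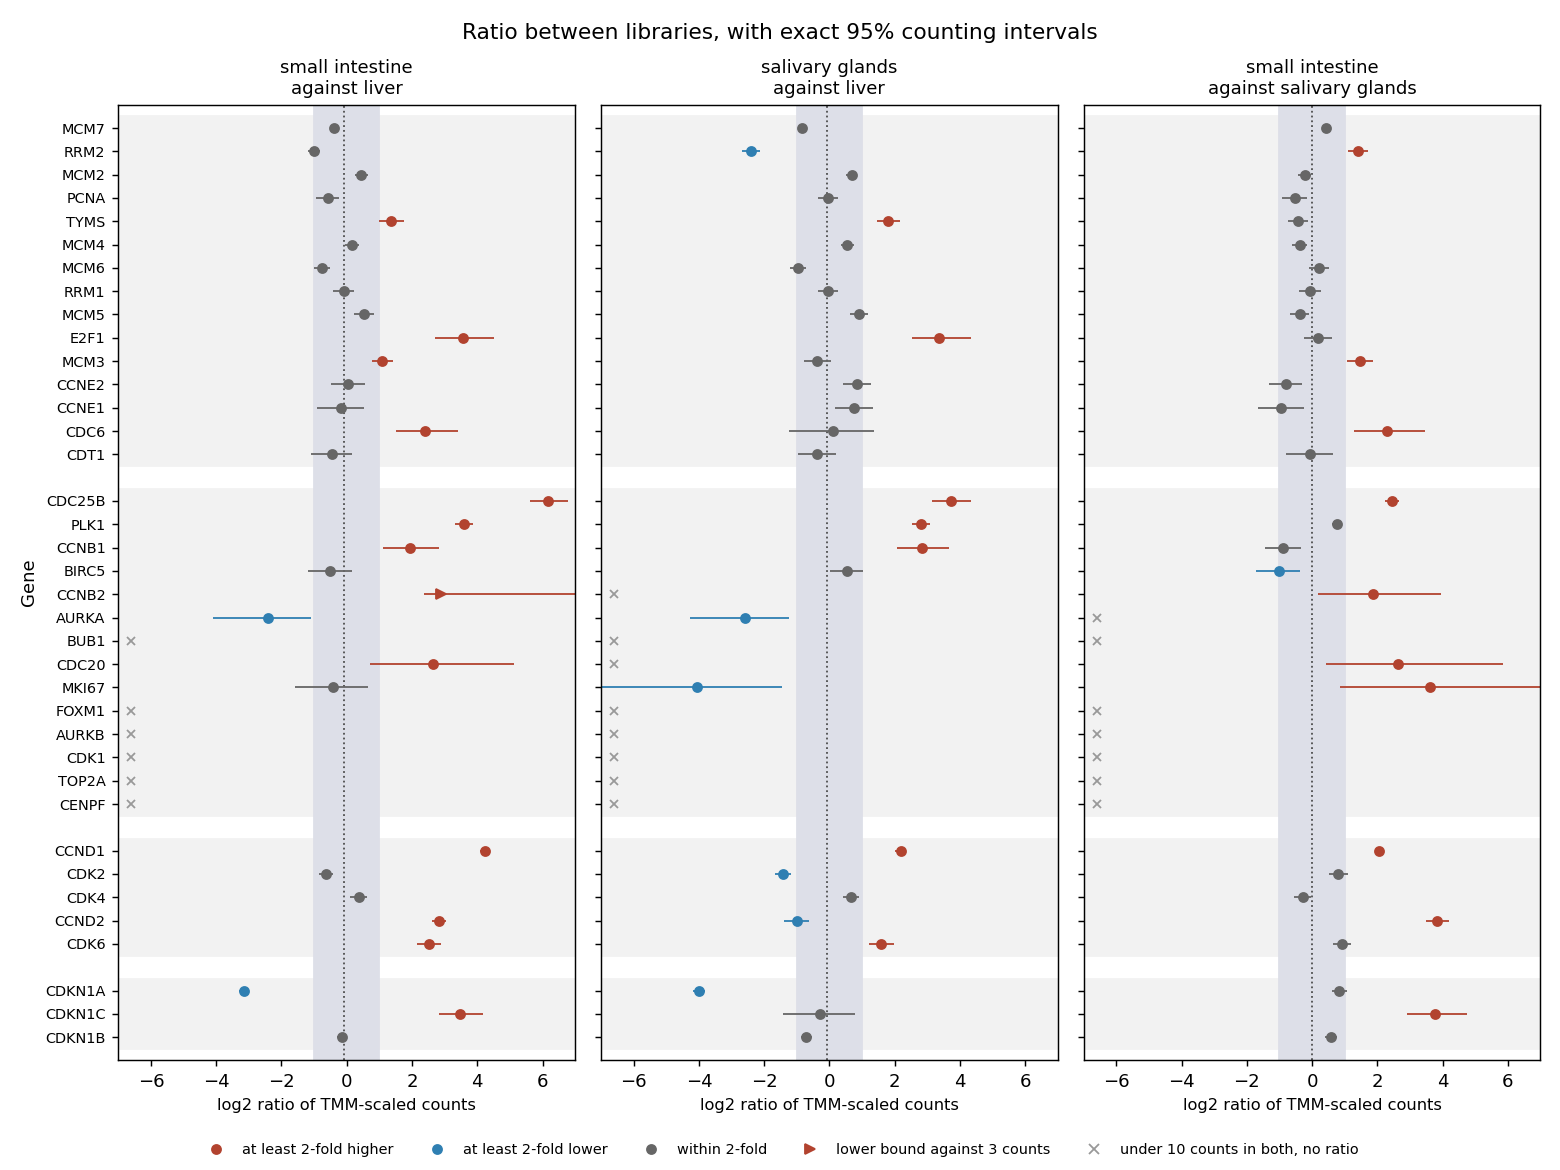
Log2 ratio of TMM-scaled counts of each member in the 3 pairs of libraries, with exact 95% intervals of the ratio of 2 counts (drawn to the panel edge where they run past it); the shaded band marks less than 2-fold, the dotted line the median of all genes, and crosses the members under 10 counts in both libraries. The points to the right in the small intestine panels include CDC25B, CCND1 and CCND2, and CDKN1A stands far to the left in both comparisons with the liver.

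Most S phase members lay within 2-fold in each comparison. Their median log2 ratio was 0.04 between the small intestine and the liver, 0.10 between the salivary glands and the liver and -0.08 between the small intestine and the salivary glands, beside -0.08, -0.07 and -0.02 for all genes. Within 2-fold lay 11, 12 and 12 of the 15, and the calls were 4 higher, then 2 higher and 1 lower, then 3 higher. As shares of the 15 these were 26.7%, then 13.3% and 6.67%, then 20%, with none lower in the first and last, against 24.2% and 24%, 22.9% and 24.9%, and 20.6% and 16.9% higher and lower among all genes. The replicative helicase, which unwinds DNA ahead of the fork, is a ring of 1 copy each of MCM2 to MCM7, yet FPKM of its subunits was unequal. MCM7 was the highest subunit in every library, with FPKM of 57.8, 39.2 and 69.2. MCM3 was the lowest subunit in every library, with FPKM of 3.82, 1.26 and 1.75. The highest subunit thus exceeded the lowest 15.2-fold, 31.0-fold and 39.4-fold. The deposited model of MCM3 has 5047 bases and that of MCM7 2417. By counts MCM3 was lowest in the salivary glands and the liver, but not in the small intestine, where it had 184 and MCM5 158. The remaining subunits, MCM2, MCM4, MCM5 and MCM6, had FPKM between 3.46 and 17.0. Among the 6 subunits a call was made for MCM3 alone. Its counts of 184, 75 and 146 gave levels 2.13-fold (95% interval 1.71 to 2.67) higher in the small intestine than in the liver and 2.76-fold (2.10 to 3.66) higher than in the salivary glands. The call against the liver was among those lost under another scaling.

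PCNA, the sliding clamp that holds polymerases on DNA and a common marker of dividing cells, was counted 89, 145 and 226 times, with FPKM of 8.77, 12.5 and 14.5. The salivary gland and liver libraries did not differ beyond counting error (0.966-fold, 95% interval 0.779 to 1.20), and the small intestine was lower than both by less than 2-fold. RRM1, the large subunit of ribonucleotide reductase, was as even, with counts of 135, 158 and 244 and FPKM of 6.29, 7.47 and 8.72. Its partner RRM2, the small subunit, was not, with counts of 305, 130 and 1026 and FPKM of 15.0, 5.02 and 34.6. RRM2 was 5.24-fold (4.36 to 6.34) higher in the liver than in the salivary glands and 2.64-fold (2.14 to 3.26) higher in the small intestine than in the salivary glands, and its ratio of liver to small intestine, 1.99, fell just short of 2. The RRM2 locus spans 70612 bases and overlaps 3 newly assembled genes on the other strand, of which that named for cystin-1 had the most counts, 65, 140 and 115. TYMS, which makes thymidylate, had the reverse order, with counts of 146, 223 and 96. TYMS was 2.57-fold (1.98 to 3.37) and 3.50-fold (2.74 to 4.49) higher in the small intestine and the salivary glands than in the liver.

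Among the genes that license origins and start S phase, CDC6 and E2F1 differed most. CDC6, which loads the helicase onto origins, had counts of 44, 10 and 14 and FPKM of 2.09, 0.356 and 0.441. It was 5.32-fold (2.86 to 10.5) higher in the small intestine than in the liver and 4.95-fold (2.45 to 11.0) higher than in the salivary glands. CDT1, which acts with CDC6, did not follow it, with counts of 32, 38 and 74 and FPKM of 1.51, 1.41 and 1.64. The CDT1 locus shares 9079 bases with the gene of N-acetylgalactosamine-6-sulfatase on the other strand, which had counts of 196, 240 and 282. The transcription factor E2F1 was counted 90, 89 and 13 times, an FPKM of 5.22, 3.79 and 0.270. The small intestine and the salivary glands did not differ beyond counting error (1.14-fold, 0.839 to 1.54), and both were above the liver, by 11.7-fold (6.52 to 22.9) and 10.3-fold (5.73 to 20.1). A gene named for actin-like protein 10 lies on the other strand within the E2F1 locus and had counts of 32, 12 and 8. Among known E2F targets, PCNA, RRM1, CDT1 and the MCM genes other than MCM3 were within 2-fold between the liver and either other library. TYMS was called higher than in the liver in both, and CDC6 and MCM3 only in the small intestine. RRM2 was called lower than in the liver in the salivary glands. CCNE1 and CCNE2, the E-type cyclins, had FPKM from 1.37 to 3.14 and no call in any comparison. The CCNE2 locus shares 4898 bases with the gene of integrator complex subunit 8 on the other strand, which had counts of 79, 128 and 88. The part of such neighbours in the counts of CDT1, E2F1 and CCNE2 was not tested.

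The mitosis members split into a few genes with ample counts and many at the edge of detection. The genes TOP2A, CDK1, AURKB, BUB1, CENPF and FOXM1 had under 10 counts in all 3 libraries, with BUB1 counted by its longest model alone. A count of 0 in at least 1 library was found for 5 of the 14 members. MKI67, the gene of the Ki-67 antigen used to stain dividing cells, was counted 11 times in the small intestine, once in the salivary glands and 25 times in the liver, an FPKM of 0.145, 0.0105 and 0.199. TOP2A, the topoisomerase that untangles sister chromatids, had 7, 1 and 4 counts. CDK1, the kinase that drives entry into mitosis, had 0, 5 and 5 counts. CENPF, of the kinetochore, had 1, 0 and 2. FOXM1, the factor that switches on genes of G2 and M phase, had 3, 8 and 0. BUB1, a kinase of the spindle checkpoint, was annotated as 3 short models, the longest of which, with 648 bases, had 7, 4 and 3. Its other models had 6, 1 and 7 counts, and 2, 1 and 0. At these counts the small intestine did not differ from the liver in MKI67 beyond counting error (0.745-fold, 0.331 to 1.57). The single count in the salivary glands put MKI67 at 0.0602-fold of the liver, with a counting interval from 0.00147 to 0.368, so that the liver library had the more of it by a factor that these counts place only between 2.72 and 682.

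Above that edge, 5 of the 8 members that could be compared were higher and 1 lower in the small intestine than in the liver, 3 of 6 higher and 2 lower in the salivary glands than in the liver, and 4 of 7 higher and 1 lower in the small intestine than in the salivary glands. The shares higher, 62.5%, 50% and 57.1%, stood beside 24.2%, 22.9% and 20.6% of all genes. The shares lower, 12.5%, 33.3% and 14.3%, stood beside 24%, 24.9% and 16.9%. Members entered only through a library where they had at least 10 counts. Between the small intestine and the salivary glands the 4 higher were CDC25B, 5.46-fold (4.74 to 6.31), CDC20, 6.18-fold (1.35 to 57.4), CCNB2, 3.65-fold (1.13 to 15.4), and MKI67, 12.4-fold (1.80 to 532) on a single salivary gland count. CDC25B, a phosphatase that activates cyclin-dependent kinases and is also expressed outside the cycle, was counted 1146, 236 and 27 times, with FPKM of 26.7, 5.0 and 0.331. It was 71.8-fold (49.1 to 110) higher in the small intestine than in the liver, the widest ratio of the members compared, and 13.2-fold (8.82 to 20.4) higher in the salivary glands than in the liver. CCNB1, the cyclin that partners CDK1, had 41, 85 and 18 counts and was 3.86-fold (2.17 to 7.13) and 7.11-fold (4.24 to 12.6) above the liver. CCNB2, a second B-type cyclin, had 13, 4 and 0 counts, which is at least 7.34-fold higher in the small intestine when the liver is set to 3 counts, and at least 5.16-fold once the counting error of the 13 counts is included. CDC20, an activator of the anaphase-promoting complex, had 11, 2 and 3 counts and was 6.21-fold (1.64 to 34.6) higher in the small intestine than in the liver. AURKA, a kinase of the spindle poles, went the other way, with 5, 5 and 45 counts, and was 5.32-fold (2.12 to 17.2) and 5.98-fold (2.38 to 19.3) higher in the liver than in the small intestine and the salivary glands. BIRC5, the gene of survivin, had 28, 64 and 67 counts and FPKM of 1.30, 2.48 and 1.86, and its ratio of salivary glands to small intestine, 2.03 (1.29 to 3.29), was barely past the threshold. AURKA was thus highest in the liver. MKI67 was higher in the liver than in the salivary glands, but did not differ from the small intestine beyond counting error. Immune markers were also highest in the liver. The 6 T cell markers summed to 1.67, 1.08 and 26.2 CPM and the 5 macrophage markers to 50.2, 104 and 517 CPM, with none of the 11 at a count of 0 in the liver. The part of these cells in the levels of MKI67 and AURKA was not tested.

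PLK1, a kinase needed at many steps of mitosis, had 896, 590 and 127 counts, the most of any mitosis member in the salivary glands and the liver and after CDC25B in the small intestine, and FPKM of 9.79, 5.48 and 1.49. It was 11.9-fold (9.91 to 14.5) and 6.99-fold (5.77 to 8.54) higher in the small intestine and the salivary glands than in the liver. Its gene lies on scaffold NW_016549226.1, from 63852 to 85080 on the minus strand (the build is not named in the sources used here). The model is 11291 bases long and shares 6741 bases of genome with the gene of IRE2 (ERN2), an endoplasmic reticulum stress sensor of mucous epithelia that lies on the other strand. IRE2 had 527, 328 and 3 counts, in the same order of libraries as PLK1. Reads were aligned as unstranded, so reads of the 2 genes in the shared stretch cannot be told apart, and how many of the PLK1 counts they make up was not tested.

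PLK1 and CDC25B held most of the counts of the mitosis members in the small intestine and the salivary glands, and in the liver 178 of 332 counts remained without them. The summed level of the mitosis members turned on them. The 14 members summed to 251 (95% Poisson interval 241 to 262) TMM-scaled CPM in the small intestine, 103 (97.1 to 110) in the salivary glands and 22.7 (20.3 to 25.3) in the liver. Without PLK1 the sums were 147, 42.7 and 14.0. Without both genes they were 14.9 (12.5 to 17.7), 18.4 (15.8 to 21.3) and 12.2 (10.4 to 14.1) over 12 members, so that the small intestine interval overlapped both others. Removing PLK1 and CDC25B after their values were seen thus changed the order of the tissues. The median log2 ratio of the mitosis members that could be compared was 2.29, 1.67 and 1.87 in the 3 comparisons, but only 8, 6 and 7 of the 16 listed entered it, and without PLK1 the median between salivary glands and liver was 0.52.

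**Figure D3:**
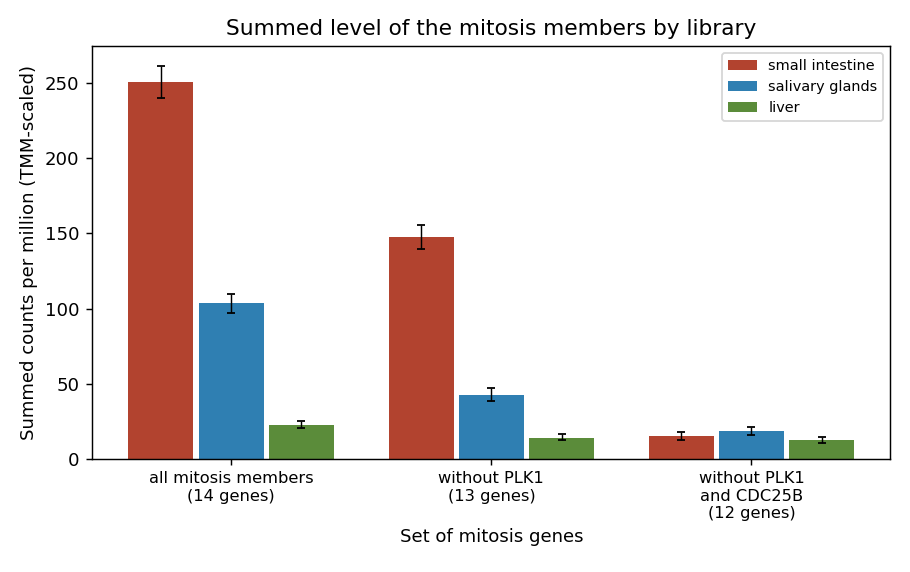
Summed TMM-scaled CPM of the mitosis members in each library, for all 14 members with values, without PLK1, and without PLK1 and CDC25B; error bars are exact 95% Poisson intervals of the summed count. The small intestine bar stands at 251, 147 and 14.9, and in the last set the 3 libraries lie between 12.2 and 18.4.

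Among the G1 members the D-type cyclins varied widely and their kinases less. CCND1, the cyclin D1 gene that couples growth signals to the cycle, was counted 3866, 1046 and 347 times, with FPKM of 153, 34.0 and 6.95. In the small intestine library it ranked above 98.8% of all genes, the highest of the members there. CCND1 was 18.9-fold (16.9 to 21.1) higher in the small intestine than in the liver, 4.16-fold (3.88 to 4.45) higher than in the salivary glands, and 4.54-fold (4.02 to 5.14) higher in the salivary glands than in the liver, and none of the 3 intervals reached 1. CCND2, the gene of cyclin D2, had 932, 74 and 224 counts and FPKM of 16.9, 1.18 and 2.48. Here the salivary glands were lowest, 14.2-fold (11.2 to 18.2) under the small intestine and, just past the threshold, 2.01-fold (1.54 to 2.65) under the liver. CDK6 had 293, 174 and 87 counts and FPKM of 3.25, 1.68 and 0.682, the same order as CCND1, with the small intestine 5.70-fold (4.47 to 7.33) above the liver. CDK4, the other kinase of the D-type cyclins, had 211, 289 and 277 counts and FPKM of 16.9, 17.2 and 11.6, and all 3 ratios were within 2-fold. CDK2, the partner of E-type cyclins, was highest in the liver, with 260, 168 and 681 counts and FPKM of 10.2, 6.19 and 18.4, and was 2.69-fold (2.27 to 3.21) lower in the salivary glands. The liver thus had the lowest CCND1 and CDK6 and the highest CDK2. The gastric markers named above were high in the same library as CCND1, CCND2 and CDC25B, and their part in those levels was not tested.

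Of the inhibitors, CDKN1A had the greatest contrast. CDKN1A, a p53 target that is induced by stress and glucocorticoids, was counted 415 times in the small intestine, 261 times in the salivary glands and 6238 times in the liver, an FPKM of 19.5, 9.57 and 144. In the liver it ranked above 98.2% of all genes and was the highest member. The liver exceeded the small intestine 8.88-fold (8.04 to 9.83) and the salivary glands 15.9-fold (14.0 to 18.0). CDKN1B, the gene of p27, was high in every library, with counts of 515, 389 and 957 and FPKM of 27.4, 17.6 and 33.1, all within 2-fold of each other in scaled counts. CDKN1C, the imprinted gene of p57, had 144, 12 and 22 counts and FPKM of 47.6, 3.13 and 3.47. It was 11.1-fold (7.04 to 18.2) and 13.5-fold (7.49 to 26.7) higher in the small intestine than in the liver and the salivary glands. Its deposited gene model is only 494 bases long, and its FPKM stood high for its counts. Each library thus had its own leading inhibitor by FPKM: CDKN1C in the small intestine, CDKN1B in the salivary glands and CDKN1A in the liver.

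Further genes of the same pathways were examined as lists that hold none of the 40. Of 40 genes of replication forks, origins and deoxynucleotide synthesis, 38 had values, and 32, 32 and 29 of these had an FPKM above 1 in the 3 libraries. In this list 7 of 36 were higher and 5 lower in the small intestine than in the liver, 8 of 37 higher and 5 lower in the salivary glands than in the liver, and 4 of 36 higher and 6 lower in the small intestine than in the salivary glands. The shares called were at or below those of all genes in each comparison. RPA1 and RPA3, subunits of the single-strand binding protein, had the highest FPKM of the list in any 1 library, which was the liver, with 14.7, 18.1 and 42.4 for RPA1 and 12.5, 29.4 and 40.9 for RPA3. RPA1 was 2.47-fold (2.19 to 2.80) higher in the liver than in the small intestine. Of 35 further genes of mitosis 34 had values, and 11, 11 and 8 of these had an FPKM above 1. As among the members, 12 of them had under 10 counts in all 3 libraries. ASPM had a count of 0 in each by its longest model, and 2, 6 and 5 by another. Of those that could be compared, 9 of 19 were higher and 1 lower in the small intestine than in the liver, 6 of 17 higher and 4 lower in the salivary glands than in the liver, and 8 of 22 higher and 4 lower in the small intestine than in the salivary glands. The shares were 47.4% and 5.26%, then 35.3% and 23.5%, then 36.4% and 18.2%, against 24.2% and 24%, 22.9% and 24.9%, and 20.6% and 16.9% of all genes, over only those members with at least 10 counts in 1 library. CKS1B, a cyclin-dependent kinase subunit, and CENPA, the centromeric histone, had the highest FPKM of this list in any 1 library, with 15.3, 5.69 and 13.5 for CKS1B and 4.94, 7.76 and 10.5 for CENPA.

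**Figure D4:**
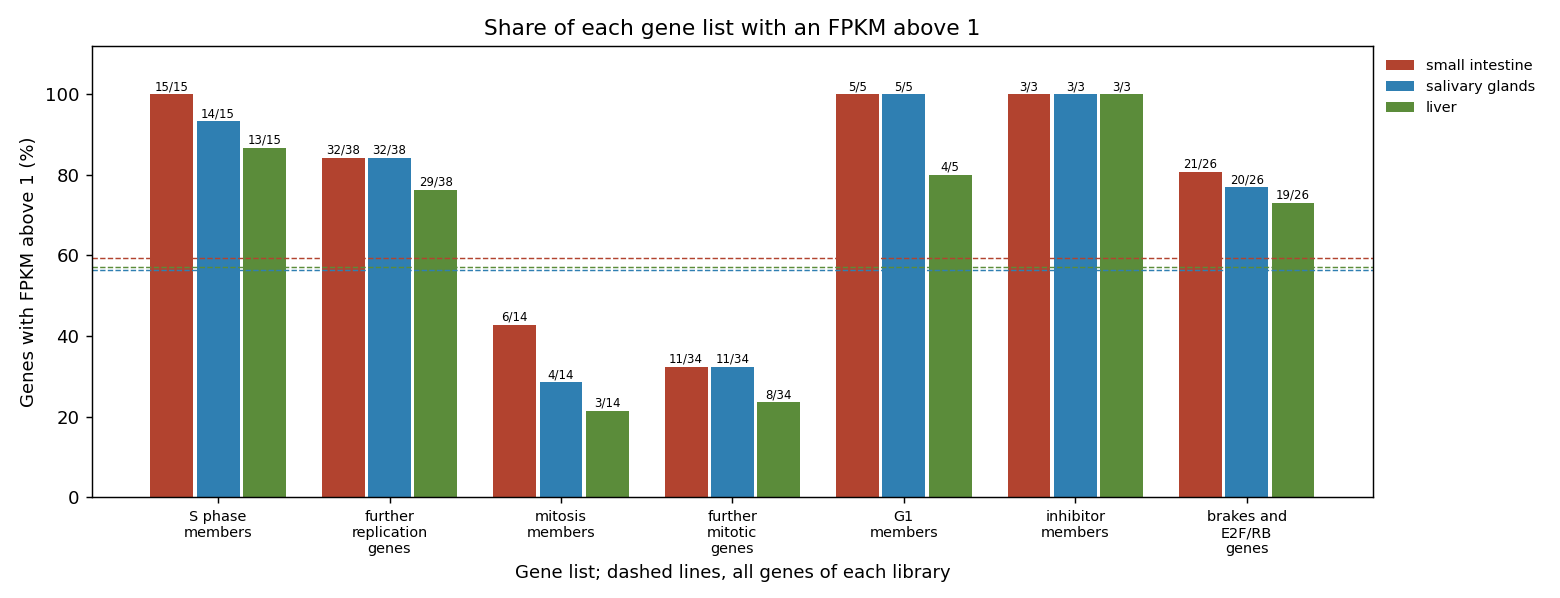
Share of each gene list with an FPKM above 1 in each library (bars, from 0), with the number of genes above it and with values over each bar; dashed lines are the shares of all genes, 59.4%, 56.3% and 57.0%. Both mitosis lists stand below the lines in all 3 libraries, and the other 5 lists above them.

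The last list held 26 genes, most of which slow or govern passage from G1. Most were E2F and retinoblastoma family genes, p53 and MDM2, the INK4 inhibitors and the antiproliferative BTG, TOB and GADD45 genes. The list also held CCNG1, CCNG2, WEE1 and MYBL2, so its counts are not of G1 brakes alone. All had values, and 21, 20 and 19 were above an FPKM of 1. In the small intestine 3 of 24 were higher and 5 lower than in the liver and 5 of 24 higher and 7 lower than in the salivary glands, and in the salivary glands 5 of 25 were higher and 8 lower than in the liver. These were 12.5% and 20.8%, 20.8% and 29.2%, and 20% and 32%, where all genes gave 24.2% and 24%, 20.6% and 16.9%, and 22.9% and 24.9%. GADD45G, a stress gene, and BTG2, a p53 target that restrains entry into S phase, had the highest FPKM of the list in the salivary glands and the liver, but not in the small intestine, where GADD45B led with 115. GADD45G had 253, 3465 and 4554 counts and FPKM of 28.9, 334 and 255, and was 10.6-fold (9.37 to 12.1) and 12.2-fold (10.7 to 13.9) lower in the small intestine than in the liver and the salivary glands. BTG2 had 2120, 10164 and 8496 counts and FPKM of 67.6, 267 and 155, and was 4.26-fold (4.07 to 4.47) lower in the small intestine than in the salivary glands. The library with the highest CCND1 was thus the lowest in both of these genes, but not across the list. Of the 26, 8 had their highest FPKM in the small intestine, 8 in the salivary glands and 10 in the liver. CDKN2C, an INK4 inhibitor, was highest in the small intestine, with counts of 196, 30 and 30 and FPKM of 15.0, 1.34 and 1.02. CDKN1A did not follow GADD45G and BTG2 into the salivary glands.

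The gene symbols in the deposited annotation did not identify these members safely. Of the 40, 25 carried their own symbol, 10 carried that of a relative and 5 carried none. MCM2 and MCM4 were both entered as MCM5, CDK6 as CDK4, CDKN1C as CDKN1B, CDC25B as CDC25A, E2F1 as E2F6, CDC6 as ORC1, CCNE1 as CCNE2, FOXM1 as FOXN3 and MKI67 as CDCA2. In turn, 19 genes carried one of 8 member symbols but another product. The gene of TOP2B, the isoform that resting cells also hold, was entered as TOP2A with counts of 746, 958 and 731, where TOP2A itself had 7, 1 and 4. The gene of FZR1, which acts in G1, was entered as CDC20 with counts of 739, 878 and 1158, where CDC20 itself had 11, 2 and 3. The kinase genes CDK8, ICK and MAK were entered as CDK1, and the first of these had 110, 109 and 235 counts against 0, 5 and 5 for CDK1. A reading by symbol alone would thus have taken the counts of these relatives for those of TOP2A, CDC20 and CDK1.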

How the data were processed

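Paired reads of RNA from 3 tissues came from an Illumina HiSeq instrument. The authors cleaned the reads, placed them on the pangolin genome with TopHat2 as unstranded and added new genes. The deposited count of a gene is a whole number of fragments, with the counting tool not given in the sources used here. The paper gives FPKM as fragments divided by mapped fragments and transcript length. The deposited FPKM did not follow from the deposited counts and lengths alone. In the small intestine E2F1 and PCNA had 8.86 and 8.76 CPM, deposited lengths of 3782 and 1284 bases, and FPKM of 5.22 and 8.77. In the liver E2F1 had 0.892 CPM and an FPKM of 0.270. PCNA had 17.4 and 15.5 CPM in the salivary glands and the liver, but FPKM of 12.5 and 14.5. Which length was behind FPKM was not tested, and comparisons of FPKM between genes and between libraries carry this limit. A deposited score, the count times 1 factor per library, served only as an added scaling, and the transcript length is as deposited by the authors.

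The members and lists were chosen with earlier results of these data known. A symbol was matched to a gene by the product name of its NR entry, and of several models the longest was taken. Every member could be named, and in the further lists the 2 genes with the highest FPKM in any library. ATP4A, the markers at 0, MUC2, AQP5, ASPM, CDKN2C and GADD45B were named after their values were seen. Counts were scaled by TMM (edgeR 4.0.16, R 4.3.3) over the 3 libraries and called at 2-fold or more, with at least 10 counts in 1 of the 2 libraries, and a count of 0 was set to 3. Intervals of ratios are exact conditional binomial and those of counts exact Poisson, at 95% (scipy 1.17.1). The steps were tested on simulated data. Alternatives were 5 other scalings (all counts, upper quartile, DESeq2 1.42.0, counts without genes over 1%, the deposited factors), ratios of FPKM, no count minimum or 50, 4-fold, a q-value of the MA-plot method of DEGseq under 0.005, FPKM above 0.5 or 5, TPM, gene copies summed, and symbols alone. The deposited factors and leaving out PLK1 were added after seeing the data. Motifs in promoters were not searched, since no sequence of this build was used here.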

Additional observations from a re-analysis of the deposited data

How the results depend on the processing

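No paired analysis was possible because each tissue has 1 library and no result comes from a test, and for the same reason no library could be left out. Under the alternatives, 35 counts of members higher and 30 of members lower stayed within 1.5 times the reported count and 4 and 9 did not. Calls with a q-value under 0.005 numbered 13 and 2, 7 and 6, and 9 and 1 in the 3 comparisons. With gene copies summed, which joins the BUB1 models, members higher in the small intestine numbered 14 against the liver and 11 against the salivary glands. In the small intestine against the liver, the members lower numbered 1 with a count minimum of 50 or with symbols alone. In the salivary glands against the liver, those higher numbered 12 without genes over 1% of the counts and 11 with no count minimum, and those lower 3 with symbols alone. In the small intestine against the salivary glands, those higher numbered 6 with a minimum of 50 and 5 with symbols alone. Those lower numbered 4 with all counts, 3 with no minimum, and 0 with FPKM ratios, at 4-fold, with symbols alone or with the deposited factors. Above an FPKM of 5 there were 19, 16 and 12 members.

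Scaling to all counts shifted every log2 ratio by -0.24, 0.22 and -0.46 in the 3 comparisons, and leaving out genes over 1% of the counts by 0.34, 0.36 and -0.02. Of the recomputed medians of the role groups, 59 moved by less than the typical counting interval of a member on 1 side and 16 by more. With all counts the G1 median was 2.27 (small intestine against liver) and 0.46 (against salivary glands), that of the inhibitors -0.37, -0.49 and 0.38, and that of the S phase members -0.54 (small intestine against salivary glands). Without genes over 1% of the counts, the medians against the liver were 0.38 (small intestine) and 0.46 (salivary glands) for S phase, 2.85 and 1.01 for G1, and 0.21 and -0.35 for the inhibitors. With FPKM ratios they were 2.25 for G1 in the small intestine, and -0.22 for S phase and -0.91 for the inhibitors in the salivary glands. Without PLK1 the mitosis median between salivary glands and liver was 0.52. The cause of these shifts beyond the scaling itself was not tested. Low counts limit the mitosis members most, since 6 of 14 (BUB1 by its longest model) had under 10 counts in every library.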
